A study of Mus musculus with 12 samples.

Results

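The 52 genes described here encode the cytoplasmic factors that start, extend and end protein synthesis in mouse cells. They were chosen by gene symbol, and all 52 were found among the 55487 genes of the count files. By role they comprise 7 factors of scanning and start codon selection, 8 subunits of eIF2 and of its exchange factor eIF2B, 13 subunits of eIF3, 13 factors that act at the cap and the poly(A) tail, 7 elongation factors and 4 factors of termination, recycling and subunit joining.

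Translation begins when the eIF4F complex binds the cap of an mRNA and a small ribosomal subunit, loaded with eIF3, eIF1, eIF1A, eIF5 and initiator tRNA on eIF2, scans to the start codon. Elongation factors then bring aminoacyl-tRNAs and move the ribosome along, and release factors end the chain. Many mRNAs for ribosomal proteins and elongation factors begin with a 5′ terminal oligopyrimidine (TOP) tract, a run of C and T at the first transcribed bases, through which mTORC1 and LARP1 control their entry into polysomes.

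RNA was sequenced from primary mouse embryonic fibroblasts, taken from E13.5 embryos, in which both Htt alleles were floxed (HTTfl/fl) in every group. HTT-deleted cells had received a lentivirus encoding Cre recombinase and GFP, and control cells a lentivirus encoding H2B-eGFP, so control cells also carried the floxed alleles and a fluorescent protein. All cells were harvested 7 days after transduction. Ribosome-associated RNA came from a purified ribosome pellet, and total RNA from 1 part in 15 of the same cell suspension. The 4 groups were ribosome-associated RNA of HTT-deleted cells, ribosome-associated RNA of control cells, total RNA of HTT-deleted cells and total RNA of control cells, with 3 libraries each. The labels do not say how many embryos gave a culture. Replicates were separate primary cultures or separate passages, so p-values measure the spread between these.

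Htt, the deleted gene, was measured at 12.8, 5.05 and 3.98 CPM (gene counts scaled to library size) in the ribosome-associated libraries of HTT-deleted cells, against 22.6, 20.1 and 32.0 CPM in those of control cells. In total RNA it was at 15.5, 10.6 and 10.7 CPM in HTT-deleted cells, against 58.9, 45.8 and 64.6 CPM in control cells. No library went against its label. Gene counts summed to 16789356 to 30571501 per library, and the lowest count of any of the 52 factors in a library was 281 (Eif2b3). All 14 fibroblast markers were detected in every group, and the muscle factor Myod1 was at 0 in all 12 libraries. The other 4 of the 5 muscle markers were detected in every group, among them Des at 1.17 to 20.1 CPM. The defining endothelial, epithelial and neuronal markers Pecam1, Cdh5, Epcam and Rbfox3 never exceeded 0.164 CPM, but other genes of those lists were detected, among them Map2 at 71.5 to 213.9 CPM, Nes at 16.5 to 54.3 CPM and Tek at 5.64 to 18.5 CPM. The 6 neural markers summed to 112 to 161 CPM in HTT-deleted and 114 to 177 CPM in control ribosome-associated RNA, and to 122 to 245 CPM in HTT-deleted and 196 to 251.5 CPM in control total RNA. Of 18 macrophage markers, all 18 were detected in every group, at a summed 2845 to 8607 CPM in HTT-deleted and 1221 to 5002 CPM in control ribosome-associated RNA, and at 1842 to 7603 CPM in HTT-deleted and 806.5 to 3306 CPM in control total RNA. In bulk RNA, fewer cells of a type and less RNA per cell cannot be told apart.

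The total library of HTT-deleted replicate 1 stood apart from the other 5 total libraries. It held the highest CPM of the 6 for 35 of the 52 factors and the lowest for 12. Over all 15574 genes it was highest for 34.3% and lowest for 40.5%. For comparisons that include it, called counts and medians over the factors are given with it and without it, as are the factors with the smallest p. Other values of those comparisons, such as intervals and counts of groups without overlap, are given with it only.

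The 52 factors took 2.17 to 2.37% of all gene counts in HTT-deleted and 2.11 to 2.36% in control ribosome-associated RNA. In total RNA they took 1.84 to 2.13% in HTT-deleted and 1.81 to 1.97% in control cells. Eef1a1, which encodes the factor that delivers aminoacyl-tRNA to the ribosome, made up 31.4 to 33.0% of the factors' counts in the 6 ribosome-associated libraries and 24.1 to 28.3% in the 6 total libraries. Per length (CPM per kilobase of merged exons, RPKM), Eef1a1 averaged 2956 ± 150.2 RPKM in HTT-deleted and 3050 ± 167 RPKM in control ribosome-associated RNA (SD, n = 3 each). In total RNA its level per length was 2037 ± 16.7 RPKM in HTT-deleted and 2066 ± 63.2 RPKM in control cells. Several Eef1a1 pseudogenes resemble its transcript, so how uniquely its reads were assigned is uncertain.

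Levels per length spanned almost 3 orders of magnitude across the factors in control total RNA. Eef2, the translocation factor, followed Eef1a1 at 715 ± 5.02 RPKM, and Eef1g, a subunit of the exchange factor of eEF1A, came next at 223 ± 4.62 RPKM. Eif5a, Pabpc1, Eef1b2 and Eif1 lay together between 149 and 159.5 RPKM, closer to each other than the SD of 10.7 RPKM of Eef1b2. The lowest level was that of Eif2b3, an eIF2B subunit, at 2.50 ± 0.0544 RPKM. Eif3j1 at 6.04 ± 0.147 RPKM and Eef2k, the kinase that inactivates eEF2, at 8.79 ± 0.714 RPKM were the next. Eif3j1 has a near-identical copy, Eif3j2, so its counts are uncertain.

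Within each role, levels per length differed between partners of the same complex. Of the scanning factors, Eif1 was highest at 149 ± 3.80 RPKM and Denr, a partner of Mcts1 in re-initiation, lowest at 9.58 ± 0.347 RPKM in control total RNA. Among eIF2 and eIF2B subunits, Eif2s2 (eIF2β) was at 31.5 ± 2.59 RPKM and Eif2s1 (eIF2α, the subunit phosphorylated under stress) at 17.8 ± 1.3 RPKM. The 5 eIF2B subunits ranged from the level of Eif2b3 to 20.9 ± 1.29 RPKM for Eif2b5, its catalytic subunit. In eIF3, Eif3h was highest at 110.1 ± 10.3 RPKM. At the cap and the poly(A) tail, Pabpc1, the main cytoplasmic poly(A)-binding protein, was highest at 158.5 ± 7.32 RPKM. The cap-binding proteins Eif4e at 13.1 ± 0.0867 RPKM and Eif4e2 at 12.9 ± 0.357 RPKM were the lowest of that role. Of the termination and recycling factors, Etf1 (the release factor eRF1) was at 41.7 ± 0.928 RPKM and Abce1, the ATPase that splits ribosomes, at 22.6 ± 0.174 RPKM.

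In control cells, the RNA recovered with ribosomes was richer in most translation factor mRNAs than total RNA was. It was poorer in mRNAs of the large scaffolds Eif4g1 and Eif4g3 and, less firmly, of Eif3a. Of the 52 factors, 25 were called higher and 3 lower in ribosome-associated RNA by edgeR's quasi-likelihood test at a Benjamini-Hochberg adjusted p under 0.05 over all 14990 genes tested. Across all genes, 10.0% were called higher and 15.0% lower. The call of Eif3a held under 5 of 15 alternative settings, and those of Eif4g1 and Eif4g3 under all 15. The median log2 difference was 0.29 over the factors and 0.017 over all genes, and 44 of the 52 lay above 0. The 3 ribosome-associated libraries lay above the 3 total libraries without overlap for 36 factors and below for 5, beside 20.6% and 23.5% of all genes. With the replicate number as a block, 36 factors were called higher and 3 lower, beside 24.3% and 25.9% of all genes. The 28 factors called without the block were all called with it. The count without the block fell to 9, 12 and 16 when total control replicate 1, 2 or 3 was left out, and to 11 when all 12 libraries shared 1 fit.

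**Figure D1:**
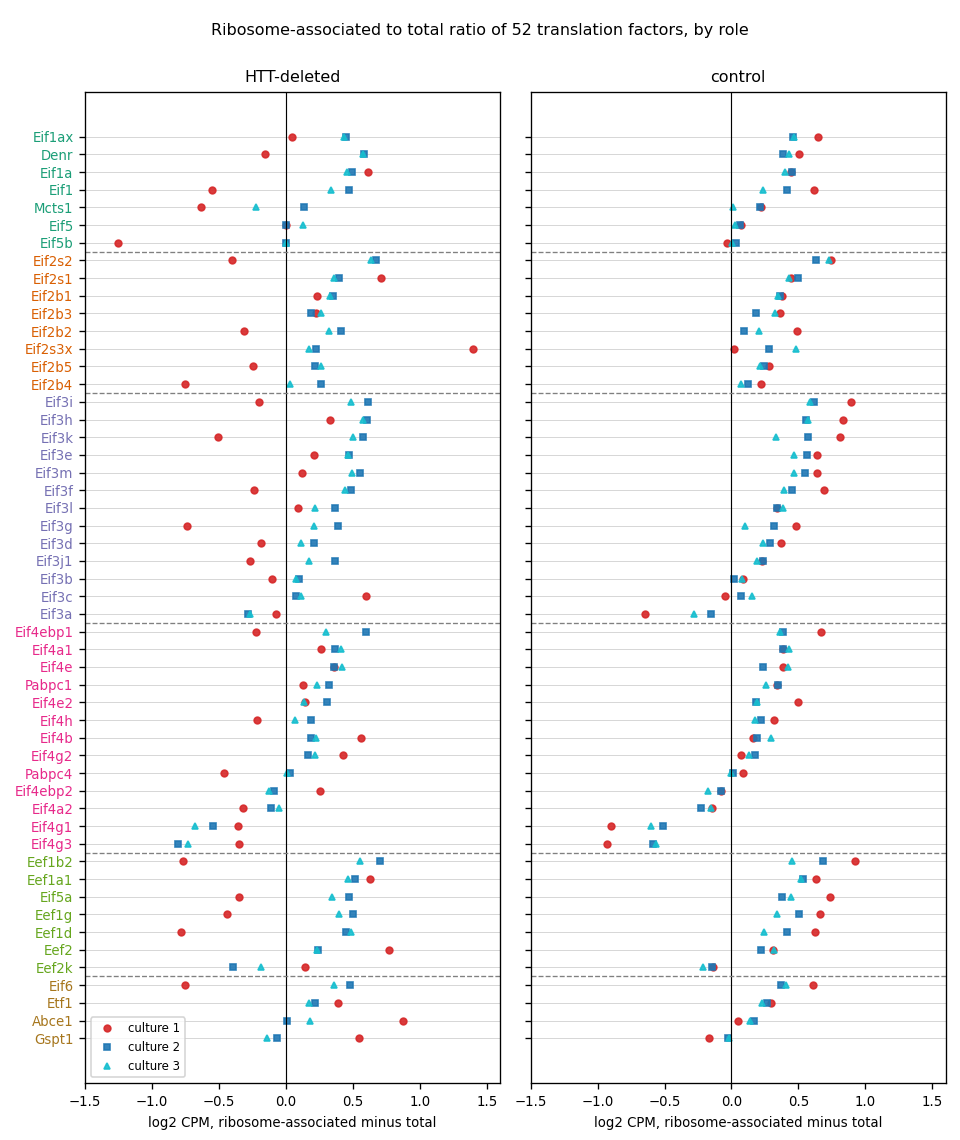
Log2 CPM in ribosome-associated minus total RNA (horizontal axis) of each of the 52 translation factors (rows, grouped by role, names coloured by role), in the 3 HTT-deleted cultures (left) and the 3 control cultures (right). In control cells most factors lie right of 0 and Eif4g1 and Eif4g3 left of it in every culture, while HTT-deleted culture 1 (red circles) departs from the other cultures.

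The scanning factors that place the ribosome on the start codon moved unevenly. Eif1ax and Eif1a, which encode near-identical forms of eIF1A and whose counts are therefore uncertain, were higher in ribosome-associated RNA by 0.52 ± 0.09 and 0.42 ± 0.08 on the log2 scale (SE). Eif1, which guards start codon choice, had 467, 424 and 374 CPM in ribosome-associated and 304, 317 and 318 CPM in total RNA of control cells. Its groups did not overlap, and its log2 difference was 0.42 ± 0.10 (SE, edgeR adjusted p = 0.025). Denr, measured at 83.8, 73.1 and 80.7 CPM against 59.1, 56.0 and 60.0 CPM in total RNA, was higher by 0.43 ± 0.09 (edgeR adjusted p = 0.013). Its partner Mcts1 had 35.8, 32.6 and 30.1 CPM against 30.6, 28.1 and 29.9 CPM, with overlapping groups and a log2 difference of 0.14 ± 0.10 (edgeR adjusted p = 0.33). Denr lies over another gene model on the same strand, so some of its reads may have been counted elsewhere. Eif5b, the GTPase that joins the subunits, had 348, 335 and 331 CPM in ribosome-associated and 357, 326 and 330.1 CPM in total RNA, a difference of -0.01 ± 0.08, and Eif5, which activates the GTPase of eIF2, was at 0.05 ± 0.07.

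The 3 eIF2 subunits differed in their ratios. Eif2s2 (ENSMUSG00000074656, chr2:154871410-154892935 in GRCm38) had 376, 342 and 320 CPM in ribosome-associated and 225, 220.1 and 193 CPM in total RNA of control cells. Its groups lay well apart, and its log2 difference of 0.69 ± 0.11 (SE, edgeR adjusted p = 0.0062) was the highest of the 52. Eif2s1 had 126, 114 and 122 CPM against 92.7, 80.7 and 90.8 CPM in total RNA, a difference of 0.45 ± 0.09 (edgeR adjusted p = 0.013). Eif2s3x, the tRNA-binding γ subunit, had 72.1, 91.0 and 94.7 CPM against 71.2, 75.1 and 67.8 CPM, with overlapping groups and a difference of 0.26 ± 0.11 (edgeR adjusted p = 0.14). Of the eIF2B subunits, Eif2b1 was called higher (0.36 ± 0.08), and the other 4 were at 0.13 to 0.29 without a call. Eif2b5 had 63.3, 62.2 and 67.5 CPM against 52, 52.7 and 58.1 CPM, higher in every culture but not called (0.24 ± 0.08, edgeR adjusted p = 0.066). With the block, 7 of the 8 subunits were called higher instead of 3.

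Within eIF3, 8 of the 13 subunits were called higher and 1, Eif3a, lower. Eif3i, a WD-repeat subunit, had 145, 121 and 138 CPM in ribosome-associated and 78.1, 79.1 and 91.6 CPM in total RNA of control cells, a log2 difference of 0.69 ± 0.10 (SE, edgeR adjusted p = 0.0059). Eif3h had 292, 254 and 292 CPM against 164, 173 and 196 CPM in total RNA, and its difference was 0.65 ± 0.10 (edgeR adjusted p = 0.0065). Eif3k had 134, 109.6 and 115 CPM against 76.2, 73.8 and 91.0 CPM, a difference of 0.57 ± 0.12 (edgeR adjusted p = 0.015). All 3 were higher in every culture, with no overlap between fractions. Eif3e had 379, 345 and 438 CPM against 244, 233 and 316 CPM, higher by 0.55 ± 0.15 (edgeR adjusted p = 0.033). Eif3m (0.54), Eif3f (0.51), Eif3l (0.35) and Eif3d (0.29) were the other subunits called higher. With the block, 10 subunits were called higher and 1 lower.

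Eif3a, the largest eIF3 subunit and its scaffold, had 441, 527 and 518 CPM in ribosome-associated RNA and 689, 585 and 628 CPM in total RNA of control cells. The fractions did not overlap, and the log2 difference was -0.36 ± 0.11 (SE, edgeR adjusted p = 0.048). This call was close to the threshold and was lost without any 1 of the 6 libraries, at edgeR adjusted p of 0.067 to 0.17, and under RLE or upper quartile scaling, no filter or 1 fit of all 12 libraries, at 0.054 to 0.095. Eif3b and Eif3c, the other large core subunits, were near 0 at 0.06 ± 0.10 and 0.05 ± 0.08.

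At the cap, 3 of the 13 factors were called higher in ribosome-associated RNA of control cells and 2, the scaffolds Eif4g1 and Eif4g3, lower. Eif4g1 (ENSMUSG00000045983, chr16:20668313-20692884), the main bridge between the cap, eIF4A, eIF3 and the poly(A)-binding protein, had 371.5, 476 and 452 CPM in ribosome-associated and 693, 678 and 684 CPM in total RNA of control cells. Eif4g3 (ENSMUSG00000028760, chr4:137993022-138208508), its paralog, had 107, 134 and 117 CPM against 204, 201 and 173 CPM. Every ribosome-associated library lay below every total library for both genes. The log2 differences were -0.67 ± 0.11 for Eif4g1 and -0.70 ± 0.11 for Eif4g3 (SE, edgeR adjusted p = 0.0067 each), and both calls held under all 15 alternative settings. Eif4g2, a relative that lacks the cap-binding protein's docking site, had 877, 945 and 949 CPM against 833.5, 837 and 866 CPM, a difference of 0.12 ± 0.08 (edgeR adjusted p = 0.34).

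Eif4e, the cap-binding protein, had 102, 93.2 and 106 CPM in ribosome-associated and 78.1, 79.0 and 79.0 CPM in total RNA of control cells, higher by 0.34 ± 0.08 (SE, edgeR adjusted p = 0.023). Eif4ebp1, a repressor of eIF4E that mTORC1 inactivates, had 96.2, 76.3 and 70.5 CPM against 60.3, 58.3 and 54.9 CPM, higher by 0.48 ± 0.13 (edgeR adjusted p = 0.037). Its relative Eif4ebp2 was at -0.12 ± 0.07 without a call.

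The paralogous helicases Eif4a1 and Eif4a2 lay on opposite sides of 0. Eif4a1 had 619, 559.9 and 605 CPM against 474, 429.5 and 448 CPM in total RNA, higher by 0.39 ± 0.09 (edgeR adjusted p = 0.023). Eif4a2 had 400.0, 415 and 423 CPM against 442, 485 and 469 CPM, lower in all 3 cultures but not called (-0.18 ± 0.08, edgeR adjusted p = 0.14). The difference between the helicases was not itself tested. Pabpc1 had 1369, 1256 and 1250 CPM against 1080, 985.0 and 1045 CPM, with no overlap, and a difference of 0.31 ± 0.10 just short of the threshold (edgeR adjusted p = 0.055). It was called higher with the block. With the block, 7 of the 13 cap and poly(A) factors were called higher instead of 3, and 2 lower in both fits.

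Of the 7 elongation genes, 5 were called higher. Eef1a1 (ENSMUSG00000037742, chr9:78478449-78489151) had 8040, 7213 and 7560 CPM in ribosome-associated and 5186, 4978 and 5287 CPM in total RNA of control cells, a log2 difference of 0.56 ± 0.11 (SE, edgeR adjusted p = 0.013). Eef1b2, an exchange factor subunit of eEF1A, had 711, 613 and 581 CPM against 375, 382 and 425 CPM, a difference of 0.68 ± 0.11 (edgeR adjusted p = 0.0067). Its partners Eef1g (0.50 ± 0.10) and Eef1d (0.42 ± 0.11) were also called higher. Eef1d lies over another gene on the same strand, which leaves its counts uncertain. Eif5a, the hypusine-containing factor that helps at slow peptide bonds, had 622, 485 and 530.5 CPM against 373, 374 and 390.3 CPM, higher by 0.52 ± 0.11 (edgeR adjusted p = 0.019). Eef2 had 2971, 2747 and 2961 CPM against 2395, 2361 and 2378 CPM, with no overlap but no call (0.28 ± 0.10, edgeR adjusted p = 0.082), and was called with the block (edgeR adjusted p = 0.013), which brought the elongation genes called higher to 6. Eef2k, with 56.2, 64.5 and 53.7 CPM against 62.0, 71.2 and 62.1 CPM, had overlapping groups and a difference of -0.17 ± 0.10 (edgeR adjusted p = 0.25).

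Of the termination and recycling factors, Etf1 had 187, 184 and 186 CPM in ribosome-associated and 153, 153 and 159 CPM in total RNA of control cells, higher by 0.26 ± 0.07 (SE, edgeR adjusted p = 0.034). Eif6, which keeps free large subunits from joining small ones, had 104, 84.96 and 91.9 CPM against 68.1, 65.7 and 69.3 CPM, higher by 0.46 ± 0.10 (edgeR adjusted p = 0.016). Gspt1 (eRF3a) at -0.08 ± 0.07 and Abce1 at 0.11 ± 0.07 were not called.

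**Figure D2:**
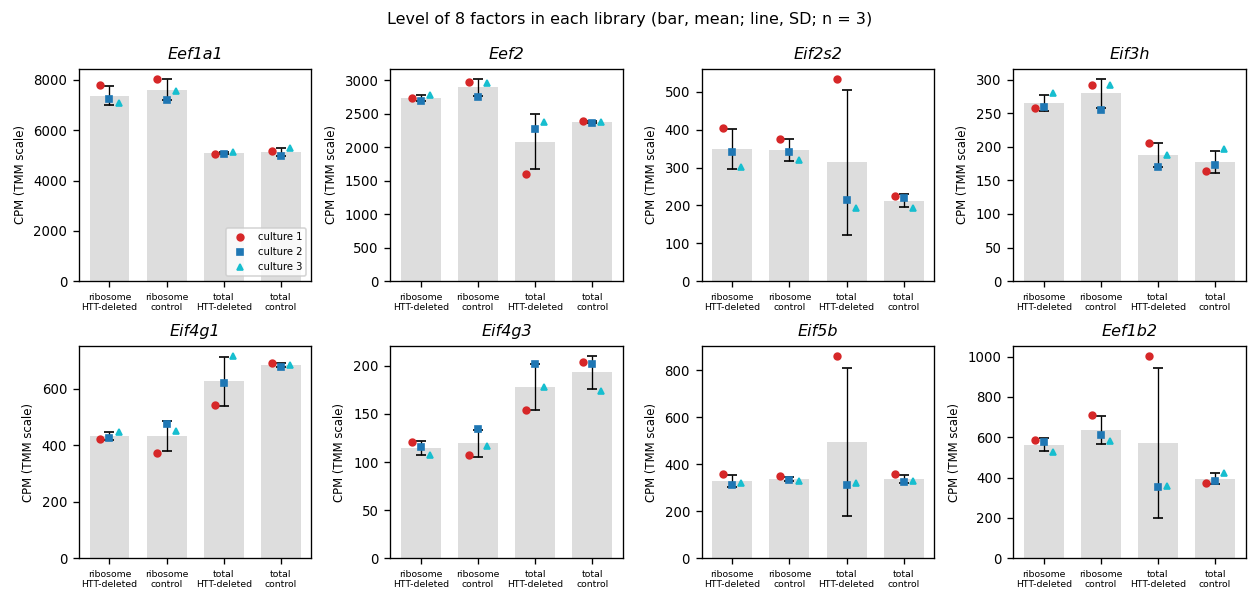
CPM on a TMM scale (vertical axes, starting at 0) of 8 translation factors in the 12 libraries, with the mean (bar) and SD (line) of the 3 libraries of a group and a symbol for each culture. In control cells the ribosome-associated libraries of Eif4g1 and Eif4g3 lie below the total ones and those of Eef1a1, Eef2 and Eif3h above them (Eef2 was not called without the block), and total RNA of HTT-deleted culture 1 is far above the other total libraries for Eif2s2, Eif5b and Eef1b2 and below them for Eef2.

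Several properties moved with the ratio of the fractions. Across the 52 factors, a longer coding sequence went with a lower ratio in control cells (Spearman's rho = -0.56, n = 52), and across 13267 genes the same relation was found (rho = -0.65). Eif4g1 with 4800, Eif4g3 with 5286 and Eif3a with 4032 coding bases were among the longest, and Eef1b2 with 675 and Eif2s2 with 993 among the shorter. The factors share libraries, so these values describe the libraries and carry no test. Reads assigned to no gene were 2.64 to 3.30% in ribosome-associated and 6.94 to 7.73% in total libraries. The summed macrophage markers of control cells had overlapping ranges, 1221 to 5002 CPM in ribosome-associated and 806.5 to 3306 CPM in total RNA, and 14 of 18 had a log2 difference above 0. None of the 18 was called without the block, and 14 were called higher with it. The part of coding length, unassigned reads or macrophage RNA in the ratio of the factors was not tested.

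**Figure D3:**
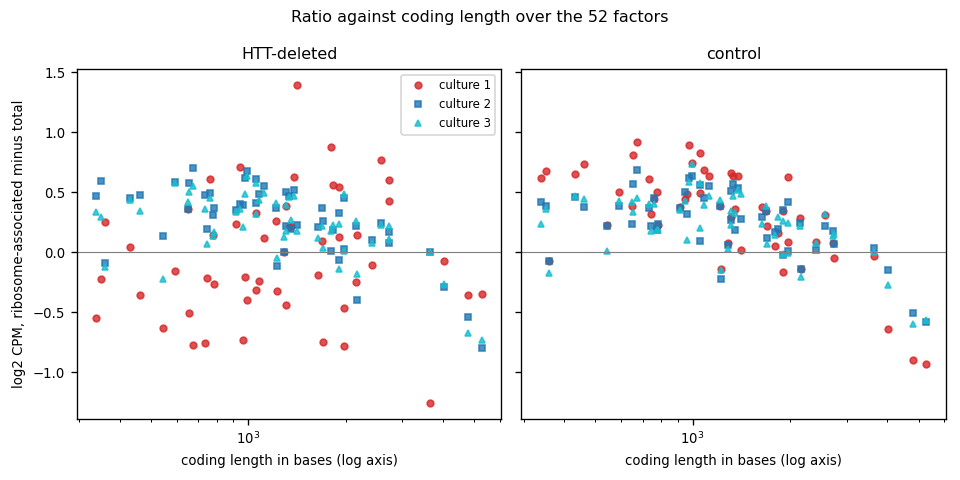
Log2 CPM in ribosome-associated minus total RNA (vertical axis) against coding length in bases (horizontal log axis) for the 52 factors, in HTT-deleted (left) and control (right) cultures. The ratio falls with length in all control cultures and in HTT-deleted cultures 2 and 3, with Spearman's rho of -0.62 to -0.45, and not in HTT-deleted culture 1 (0.16).

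Among the 52 factors, 10 are listed as TOP mRNAs: Eef1a1, Eef1b2, Eef1d, Eef1g, Eef2, Eif3e, Eif3f, Eif3h, Eif4b and Pabpc1. In control cells 7 of these 10 were called higher in ribosome-associated RNA and none lower, with a median log2 difference of 0.50. Of the 42 factors outside the list, 18 were called higher and 3 lower, with a median of 0.26. With the block, all 10 TOP mRNAs and 26 of the other 42 were called higher. The difference between the lists was not tested.

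To show the start of these transcripts, 30-base windows around the RefSeq transcription start (15 bases before it and 15 from it on, GRCm38.p6) are printed for the 5 TOP-listed genes with an entry, and for Eif2s2 and Eif4g1, with the highest ratio and one of the lowest. Capitals mark the unbroken run of C and T that covers the start.
Eef1a1, chr9:78481710-78481739, minus strand: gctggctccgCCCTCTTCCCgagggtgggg
Eif3f, chr7:108934400-108934429, plus strand: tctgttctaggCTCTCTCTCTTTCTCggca
Eef2, chr10:81176616-81176645, plus strand: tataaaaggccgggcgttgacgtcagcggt
Eef1b2, chr1:63176816-63176845, plus strand: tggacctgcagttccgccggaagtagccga
Eif4b, chr15:102073758-102073787, plus strand: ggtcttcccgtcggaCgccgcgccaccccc
Eif2s2, chr2:154892892-154892921, minus strand: cacgtaaggttggCTTTactgtacgcctgc
Eif4g1, chr16:20672712-20672741, plus strand: cgccagcgcagctccgccctctgcgccggt
A run of at least 5 bases of C and T covered the start in 2 of the 5 TOP-listed genes with an entry, Eef1a1 and Eif3f. Of all 40 factors with an entry, which had 52 entries, 5 factors had such a run, the others being Eif2b5, Eif2s3x and Eif3l. Of all 32851 promoter entries 10.1% had one, a share counted per entry and not per gene. The window follows the annotated start, and no match says only that the run is not at that base.

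In HTT-deleted cells, none of the 52 factors was called between the fractions at an adjusted p under 0.05 (edgeR's quasi-likelihood test). An unadjusted p under 0.05 was found for 7 of the 52 factors and for 1785 of all 14627 genes. Of all 14627 genes, 0% were called higher and 0.896% lower. The median log2 difference of the factors was 0.12, and the 3 ribosome-associated libraries lay above the 3 total ones for 17 factors and below for 3, beside 8.89% and 11.6% of all genes. Culture 1 differed from the other cultures. Its median over the factors was -0.090, against 0.34 and 0.23 in HTT-deleted cultures 2 and 3. In control cultures 1 to 3 the medians were 0.37, 0.27 and 0.25.

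In culture 1 it was the total library that departed from the others. Eef1b2 had 587, 576 and 527 CPM in ribosome-associated RNA of HTT-deleted cells and 1002, 354 and 360.1 CPM in total RNA. Eif2s2 had 405, 341 and 300.4 CPM in ribosome-associated RNA and 534.5, 213 and 194 CPM in total RNA of these cells. Eif5b had 359.9, 310.4 and 318 CPM and 859, 311 and 318.5 CPM. In each of the 3 genes total replicate 1 was the single high value, at over 2 times the others, and the ribosome-associated libraries did not share it. Other factors went the opposite way: Eef2 had 1606 CPM in total HTT-deleted replicate 1, against 2273 and 2369 CPM in replicates 2 and 3, and Eif2s3x had 34.6 CPM, against 81.4 and 81.7 CPM.

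Over the 52 factors, the ratios of HTT-deleted culture 1 had a Spearman's rho of -0.21 to 0.20 with those of the other 5 cultures. Among the other 5, of both genotypes, rho was 0.80 to 0.95. The relation to coding length was absent there too, with a rho of 0.16 in HTT-deleted culture 1, against -0.59 and -0.46 in HTT-deleted cultures 2 and 3. What set this library apart was not tested.

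Without total HTT-deleted replicate 1, 18 of the 52 factors were called higher and 2 lower in ribosome-associated RNA of HTT-deleted cells, beside 7.95% and 11.9% of all genes. In pairs 2 and 3 alone, with the block, 36 were called higher and 6 lower, beside 27.7% and 27.9% of all genes. This last fit has 1 residual degree of freedom, so its spread comes almost wholly from that shared across genes. It called all 28 factors that were called in control cells, in the same direction. Eif4g3 had 121, 115 and 107 CPM in ribosome-associated and 154.5, 201 and 178 CPM in total RNA of HTT-deleted cells, with no overlap between the fractions (-0.65 ± 0.16, SE, edgeR adjusted p = 0.13 with all libraries). Eif4g1 had 423, 426 and 448 CPM against 542.5, 621 and 716 CPM (-0.54 ± 0.17, edgeR adjusted p = 0.24). Eif1a, Eif2s1 and Eif3h, the other factors with the smallest p, were at 0.51 ± 0.14, 0.48 ± 0.14 and 0.49 ± 0.14 (edgeR adjusted p = 0.16, 0.19 and 0.20). Without total HTT-deleted replicate 1 all 5 were called, with log2 differences of -0.73 for Eif4g3, -0.63 for Eif4g1, 0.53 for Eif1a, 0.44 for Eif2s1 and 0.56 for Eif3h (edgeR adjusted p = 0.011 to 0.030).

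Huntingtin loss was not accompanied by a called change of any translation factor in ribosome-associated RNA. None of the 52 factors and none of all 14588 genes (0%) was called by edgeR's quasi-likelihood test between HTT-deleted and control cells, and 0 factors and 110 genes had an unadjusted p under 0.05. The deleted gene Htt, lower in every HTT-deleted than in every control library of this fraction, was thus not called either. The lack of calls is therefore weak evidence that the factors were unchanged. With the replicate block, 1.46% of all genes were called higher and 0.233% lower, and again none of the factors. Log2 differences lay between -0.17 (Eef1b2) and 0.12 (Eif3c), with a median of -0.035 over the factors and -0.0010 over all genes. The 95% intervals of the factors reached from -0.43 to 0.44, with a median half-width of 0.235, so changes of that size in either direction were not excluded for a typical factor.

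Of the 52 factors, 35 had a log2 difference below 0 in ribosome-associated RNA of HTT-deleted cells. Among them were all 7 elongation genes, with a median of -0.12, and all 10 TOP-listed mRNAs, with a median of -0.095; 5 genes belong to both lists. No member of either list passed the test. Eef1a1 had 7791, 7238 and 7078 CPM in HTT-deleted and 8040, 7213 and 7560 CPM in control ribosome-associated RNA. Eef1g had 726, 764 and 707 CPM in HTT-deleted and 904, 816 and 753 CPM in control cells (-0.17 ± 0.11, SE, edgeR adjusted p = 1). These groups overlapped.

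The groups did not overlap for 4 factors that were lower and 1 that was higher in HTT-deleted ribosome-associated RNA, where the shares over all genes were 2.82% and 2.63%. Eif6 had 84.2, 81.4 and 83.8 CPM in HTT-deleted and 104, 84.96 and 91.9 CPM in control cells (-0.16 ± 0.09, SE, edgeR adjusted p = 1). Eif3d had 124, 126.5 and 125 CPM in HTT-deleted and 138, 135 and 134 CPM in control cells. The others were Pabpc1 and Eif4h on the lower and Eif4g2 on the higher side. Eif4g2 had 994, 951.5 and 974.7 CPM in HTT-deleted and 877, 945 and 949 CPM in control cells, the highest control library lying just under the lowest HTT-deleted one.

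In total RNA, no factor was called between HTT-deleted and control cells either (0% of 14759 genes, edgeR's quasi-likelihood test), and 0 factors and 44 genes had an unadjusted p under 0.05. Htt was again not called, although its groups did not overlap. The median log2 difference was 0.11 over the factors and 0.013 over all genes, and 38 of the 52 lay above 0. Pair 1 differed from the other pairs. In pair 1 the median was 0.32 and the factors spread from -1.04 (Eif2s3x) to 1.42 (Eef1b2). In pairs 2 and 3 it was -0.029 and -0.033, with factors between -0.27 and 0.27. Factors above 0 numbered 36 in pair 1 and 17 in each of pairs 2 and 3. The difference also ran with coding length in pair 1, with a Spearman's rho of -0.47 over the 52 factors and -0.58 over all genes with a coding length, against 0.020 and 0.17 over the factors in pairs 2 and 3. The part of coding length in the difference was not tested. Without total HTT-deleted replicate 1 the median of the comparison was -0.025. For no factor were the groups free of overlap, where 1.61% of all genes lay above and 2.60% below.

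**Figure D4:**
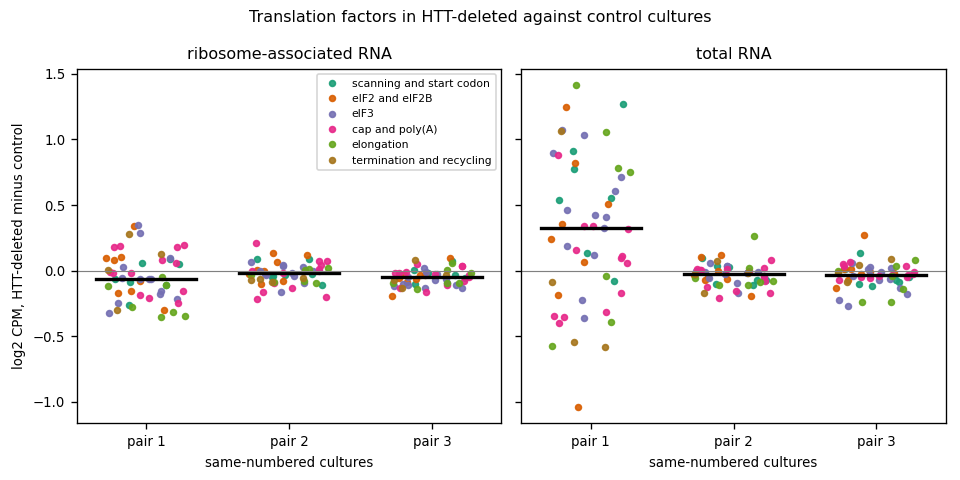
Log2 CPM in HTT-deleted minus control cultures (vertical axis) of the 52 factors (points, coloured by role), by pair of same-numbered cultures, in ribosome-associated (left) and total RNA (right); black lines are medians and the horizontal scatter within a pair is arbitrary. The wide spread and raised median of 0.32 in total RNA are found in pair 1, while pairs 2 and 3 lie between -0.27 and 0.27 there.

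The 5 factors with the smallest p in total RNA had their highest value in that library. Mcts1 had 52.4, 28.8 and 32.8 CPM in HTT-deleted and 30.6, 28.1 and 29.9 CPM in control cells (0.40 ± 0.26, SE, edgeR adjusted p = 0.98). Eif1ax was at 0.25 ± 0.16, Eif3i at 0.45 ± 0.29, Eif2s2 at 0.61 ± 0.42 and Eif4ebp1 at 0.42 ± 0.30, all with overlapping groups. Without total HTT-deleted replicate 1 these differences were 0.069 for Mcts1, 0.11 for Eif1ax, 0.048 for Eif3i, -0.052 for Eif2s2 and 0.0040 for Eif4ebp1. Eif4ebp1 had 111, 58.3 and 56.8 CPM in HTT-deleted and 60.3, 58.3 and 54.9 CPM in control cells, so 2 of its 3 pairs were alike. Etf1, by contrast, had 144, 149.8 and 157 CPM in HTT-deleted and 153, 153 and 159 CPM in control cells, with an interval half-width of 0.27, the narrowest of the 52. That of Eef1b2 was 1.06, the widest.

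In the authors' deposited table, which compares HTT-deleted with control cells in each fraction after adjustment for unwanted variation, 2 of the 52 factors had a false discovery rate under 0.05 in total RNA. These were Eif2s2, with a log2 fold change of 0.44 (false discovery rate 0.019), and Eif5b, with 0.42 (0.025), in the authors' deposited table, where 4.97% of 16974 genes passed. Both had their high value in total HTT-deleted replicate 1, as given above. In ribosome-associated RNA the authors' deposited table passed 4.21% of 16235 genes and none of the factors, the lowest false discovery rate being 0.36. Htt passed in both fractions of the authors' deposited table. Its log2 fold change was -2.18 in total RNA (false discovery rate 4.0e-39) and -1.93 in ribosome-associated RNA (4.5e-07).

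The change of the ribosome-associated to total ratio with HTT deletion was tested as an interaction within cultures. None of the 52 factors and none of 15574 genes (0%) was called by edgeR's quasi-likelihood test, and 0 factors and 150 genes had an unadjusted p under 0.05. The median log2 change of the ratio was -0.12 over the factors and 0.023 over all genes. It was -0.035 without total HTT-deleted replicate 1 and -0.014 in pairs 2 and 3 alone. Mcts1 at -0.39 ± 0.21, Eif3i at -0.40 ± 0.23, Eif3d at -0.25 ± 0.15, Eif5a at -0.36 ± 0.24 and Eif4h at -0.22 ± 0.15 had the smallest p (SE, edgeR adjusted p = 0.86 each). Without total HTT-deleted replicate 1 they were at -0.20, -0.15, -0.14, -0.11 and -0.11 in the same order, and in pairs 2 and 3 alone at -0.16, -0.056, -0.10, -0.0060 and -0.073. The 95% intervals of the 52 reached from -1.39 to 1.08.

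Macrophage markers moved with the HTT comparisons: all 18 lay above 0, with a median log2 difference of 0.73 in ribosome-associated and 0.89 in total RNA of HTT-deleted against control cells. None was called, and 10 were called higher with the block in ribosome-associated RNA. Fibroblast markers had medians of -0.093 in ribosome-associated and -0.087 in total RNA. The part of macrophage RNA in the values of the factors was not tested.

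Other genes of the translation machinery were read from lists of accessory factors and regulators. Of 28 tested paralogs and accessory factors, 8 were called higher and 2 lower in ribosome-associated RNA of control cells, beside 10.0% and 15.0% of all genes, with a median log2 difference of 0.20. With the block 10 were called higher and 6 lower, beside 24.3% and 25.9% of all genes. Eif1b, a paralog of Eif1, was at 0.53 ± 0.12 and Eef1e1, a scaffold protein of tRNA synthetases, at 0.51 ± 0.11 (SE). Eif4ebp3, another eIF4E-binding protein, was at -2.60 ± 0.45 and Pabpn1, the nuclear poly(A)-binding protein, at -0.88 ± 0.16. Eif4ebp3 did not pass the expression filter among the ribosome-associated libraries alone. It entered the control comparison through total RNA, where it was higher, so its fall and its call carry limited weight. Of 9 tested genes of eIF2α kinases, phosphatases and their effector, 1 was called higher and 1 lower, beside 10.0% and 15.0% of all genes. Atf4, the transcription factor translated when eIF2α is phosphorylated, was the higher (0.39 ± 0.08) and Eif2ak4, the kinase GCN2, the lower (-0.55 ± 0.12). With the block 2 of these 9 were called higher and 1 lower, beside 24.3% and 25.9% of all genes.

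Regulators of TOP mRNAs lay mostly below 0, with 13 of 18 on that side, beside 7265 of all 14990 genes. A longer coding sequence went with a lower ratio across all genes (Spearman's rho = -0.65), and its part in these values was not tested. Of the 18 genes of mTORC1 and TOP control, 5 were called lower and 3 higher in ribosome-associated RNA of control cells, beside 15.0% and 10.0% of all genes, with a median of -0.24. With the block 10 were called lower and 3 higher, beside 25.9% and 24.3% of all genes. Mtor, the kinase itself, was at -0.74 ± 0.12, its upstream inhibitors Tsc1 and Tsc2 at -0.64 ± 0.12 and -0.65 ± 0.10, and Larp1, which binds TOP mRNAs, at -0.58 ± 0.08 (SE). Larp4 was at -0.26 ± 0.08. Cnbp (0.48 ± 0.09), Rheb, the activator of mTORC1 (0.40 ± 0.08), and Akt1s1, its inhibitor PRAS40 (0.35 ± 0.08), were higher. Between HTT-deleted and control cells no gene of these 3 lists was called in either fraction.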

How the data were processed

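Per the submitters' processing notes, reads passed FastQC, STAR 2.7.2b alignment and HTSeq 0.11.1 counting, with GRCm38 (mm10) as the build. What the authors deposited are whole-number read counts per Ensembl gene for 12 libraries. The sources used here give neither the annotation release nor the strand setting; the kit was stranded, per the labels. The RNA quality number was above 9 and input 250 ng, per the labels. The authors' deposited comparison table, named for RUVSeq with 2 factors, gives per gene the p-value, false discovery rate and log2 fold change, with a test score and the average log2 CPM. Its direction was checked on Htt.

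Counts were scaled by TMM, filtered with filterByExpr and tested with edgeR 4.0.16 (R 4.3.3), with robust quasi-likelihood fits on all genes of the groups compared and Benjamini-Hochberg adjustment over all genes tested. The 5 summary entries that name no gene were left out. All 52 factors passed the filter in each comparison. SE is the log2 fold change over the square root of F. CPM is on the TMM scale over 12 libraries, pair differences use log2 CPM with a prior count of 2, and RPKM divides by merged exon length in GENCODE M21, which understates genes with rarely used exons. Coding length is from the same annotation; 55394 of 55487 genes had a symbol there. Start windows are from RefSeq. Entries of factors on chromosome 18 (Eif1a and Etf1) were not used, and 40 of the 52 factors had an entry elsewhere. Total depth limits precision only for the rarest factors. Replicates differed by 32.1 to 162 times sampling noise (chi-square per degree of freedom), so none were merged.

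Deviations from the group mean were correlated between same-numbered libraries in all 12 pairs, at 0.227 to 0.737, so numbers pair the samples. Fits between 2 groups left out the block, so their SE and p ignore this pairing. The effect of the block is given where it changed a count of factors or listed genes. The interaction had the 6 cultures as its block. Alternatives were other scalings, filters, DESeq2 1.42.0, limma 3.58.1 voom, the block, all 12 libraries in 1 fit, pairs 2 and 3 alone and each library left out. Genes named in full were 20 set by list, those called with the largest changes (or, with none called, the 5 with the smallest p) and the highest and lowest per length of each role; Eif3f, Eif3m and other factors named beside them complete a count. The members, roles and lists were chosen with earlier results of these data known. The fits were tested on simulated data with the same spread in every gene, no pairing and no outlying library. That test therefore does not show how many real changes these libraries could reveal.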

Additional observations from a re-analysis of the deposited data

How the results depend on the processing

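In control cells, the number of factors called between ribosome-associated and total RNA stayed within 1.5 times of 28 under other scalings, other filters, DESeq2 and limma voom. It was 39 with the replicate block, 42 in pairs 2 and 3 with the block and 11 with all 12 libraries in 1 fit, which includes the outlying library in its spread. Leaving out 1 library gave 9 to 26 calls: 9, 12 and 16 without total control replicates 1, 2 and 3. The median over the factors was 0.28 to 0.33 with a library left out and 0.29 with the replicate block. Among the factors named by the fixed rule or list for this comparison, Eif2s1, Eif3h, Eif4g1 and Eif4g3 were called under all 15 settings. Other called factors, such as Eif1a and Eif3m, were not followed through every setting. In HTT-deleted cells the 0 calls became 6 with DESeq2, 7 with all 12 libraries in 1 fit and 42 in pairs 2 and 3, and 0 to 20 with a library left out, the 20 being without total HTT-deleted replicate 1; the replicate block gave 0. Eif6 there was at -0.10 with all libraries, 0.42 in pairs 2 and 3, and -0.32 to 0.42 with a library left out, the 0.42 being without that library. Between HTT-deleted and control cells no factor was called under any setting; the medians with 1 library left out were -0.067 to -0.013 in ribosome-associated RNA and -0.025 to 0.19 in total RNA. The block moved these medians to -0.038 and 0.097. For the interaction they were -0.21 to -0.029, and -0.14 with no replicate block. No scaling moved the median of all genes by 0.1. Among named factors in the control comparison, 59 of 390 values under alternatives lost the threshold, 16 gained it and 0 changed sign. In these fits a change of about 0.235 on the log2 scale in ribosome-associated and 0.44 in total RNA was the median half-width of a factor's interval, which limits what the HTT comparisons can show.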
